A study of Mus musculus with 4 samples.

Results

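The CCR4-NOT complex was followed through 7 genes for its regulatory and structural subunits, Cnot2, Cnot3, Cnot4, Cnot9, Cnot10, Cnot11 and Tnks1bp1, in livers of wild-type mice and of mice labelled Cnot3+/-. Probe sets were taken where the array annotation gave a single gene symbol and that symbol was one of these 7, which gave 22 of the 45101 probe sets on the array, for 7 of its 18193 genes with such a probe set. Cnot1, the scaffold on which the other subunits assemble, had no probe set with a single symbol and was not analysed here. The animals were male C57BL/6J mice, 12 weeks old, kept on normal chow and then fasted for 24 h at the time of sampling. One group of 2 mice was wild-type and the other group of 2 was heterozygous for Cnot3. The labels do not say how the Cnot3 allele was altered, in which cells, or which part of the gene is affected, and they name no treatment besides fasting. Each mouse gave 1 single-colour Affymetrix array, named by genotype and the replicate number of the labels, as in wild-type 1 or Cnot3+/- 2. The labels call them biological replicates, and 2 arrays per group limit the precision of every value. The question is whether the liver transcripts of these subunits differ by genotype after fasting.

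CCR4-NOT is the main cytoplasmic deadenylase: it removes the poly(A) tail of mRNAs, which leads to their translational repression and decay. Its nucleases sit on the scaffold through one surface, while the subunits described here occupy other surfaces, hold the assembly together and receive the RNA-binding proteins that bring the complex to particular transcripts. In the liver the complex is known for its part in the turnover of metabolic mRNAs, and mice heterozygous for Cnot3 are known as lean animals.

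Promoter windows from RefSeq (GRCm38.p6), reaching from 250 bases before to 50 bases after a transcription start, were found for 6 of the 7 genes, all except Tnks1bp1. The windows of Cnot3, the gene altered in these mice by its label, and of Cnot10, whose brightest probe set had the smallest unmoderated p among those of the subunits, are shown 5′ to 3′ with the matches to 5 short motifs in capitals. These motifs were chosen after the sequences were seen and were searched on both strands. They are the CCAAT box, the GC box with the letters GGGCGG, the ETS core with CCGGAAG, the YY1 motif with AAGATGGC and the TATA box with TATAAA. No measurement here reads promoter activity directly, so the matches are descriptions of sequence.
Cnot3, chr7:3645019-3645318, plus strand: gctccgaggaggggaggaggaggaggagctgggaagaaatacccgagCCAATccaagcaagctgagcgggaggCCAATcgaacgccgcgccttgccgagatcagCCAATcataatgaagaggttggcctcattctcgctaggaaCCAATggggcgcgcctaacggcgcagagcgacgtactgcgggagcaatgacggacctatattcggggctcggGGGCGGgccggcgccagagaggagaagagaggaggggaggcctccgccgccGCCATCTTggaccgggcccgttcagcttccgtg
Cnot10, chr9:114640151-114640450, minus strand: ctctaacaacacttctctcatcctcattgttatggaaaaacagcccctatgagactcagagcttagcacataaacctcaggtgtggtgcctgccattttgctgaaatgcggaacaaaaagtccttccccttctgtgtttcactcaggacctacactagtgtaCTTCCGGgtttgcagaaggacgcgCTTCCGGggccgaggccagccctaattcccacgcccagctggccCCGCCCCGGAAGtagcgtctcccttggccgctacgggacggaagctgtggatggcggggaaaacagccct
The Cnot3 window held 4 CCAAT boxes, a number reached by 1.06% of the 32851 promoter windows of the table, beside 1 GC box and 1 YY1 match. A single CCAAT box or more was present in 37.4% of all windows. The Cnot10 window held 3 ETS cores, reached by 0.213% of all windows, and 1 GC box that overlaps the last of them. The limits for the CCAAT box and the ETS core were set at the counts found in these windows, so their rarity was not tested. A GC box was found in 6 of the 7 windows of the 6 genes, against 35.7% of all windows. The window without it was the second one of Cnot2, while each gene had at least 1 window with it. None of the 7 windows held a TATA box, against 13.6% of all. The G and C content was 64.3% in the Cnot3 window and 55.7% in that of Cnot10, with a median of 52.7% over all windows.

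The 4 arrays had like distributions, with median log2 values from 4.62 to 4.66. Of the 27022 probe sets tested, a gap of 2-fold or more was found for 166 in wild-type and for 723 in Cnot3+/-, from animal to animal. All 8 hepatocyte markers were bright, each above 96.7% of probe sets by its mean, and their mean log2 value ran from 13.52 to 13.73 on the 4 arrays. Some immune cell markers were high on Cnot3+/- 2: the 8 measured Kupffer cell and macrophage markers averaged 9.67 there and 7.49 to 7.91 on the other arrays, the 4 of T and NK cells 6.35 against 4.28 to 4.42, and the 3 of neutrophils 6.34 against 5.14 to 5.37. The 3 B cell markers averaged 4.38 and 4.33 on Cnot3+/- 1 and 2, against 4.90 and 4.61 on wild-type 1 and 2. The 5 markers of sinusoidal endothelium averaged lowest on Cnot3+/- 1, at 6.70 against 7.52 to 7.66. By genotype mean 0 of these 5 were higher in Cnot3+/- (median difference -0.47). The 5 of stellate cells also averaged lowest on Cnot3+/- 1, at 6.33 against 6.70 to 7.36. The 4 of cholangiocytes averaged 4.48 and 4.63 on Cnot3+/- 1 and 2, against 4.16 and 4.34 on wild-type 1 and 2. In whole liver, fewer cells of a type and less RNA per cell cannot be told apart, and the part of these cells in the subunit values was not tested.

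No probe set of the 7 genes passed the test between the genotypes. The test was limma's moderated test on the deposited RMA log2 values, two-sided, with Benjamini-Hochberg adjustment over all 27022 probe sets above a filter on dim signal and a threshold of 0.05. Of the 22 probe sets, 19 passed that filter; 0 of them had an adjusted p below the threshold and 0 an unadjusted p under 0.05, where 3.72% of all tested probe sets did. Over all tested probe sets 2 passed, both higher in Cnot3+/-, which is 0.0074%. Without moderation of the variances, 1 of the 19, that of Cnot10 described below, had an unadjusted p under 0.05, beside 4.44% of all tested probe sets.

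**Figure D1:**
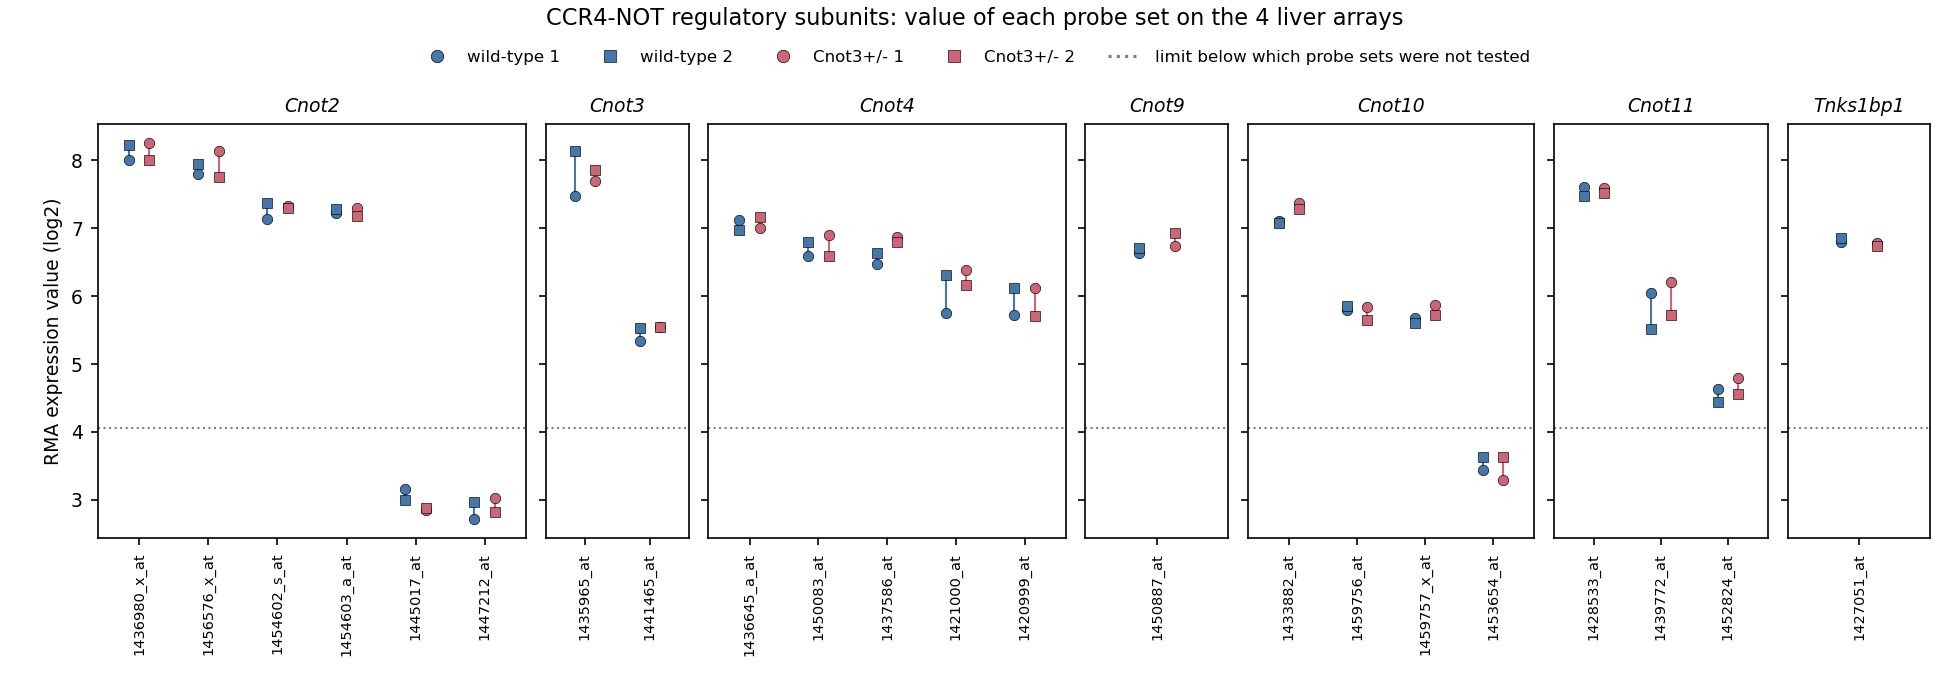
RMA log2 value of each probe set (x axis, grouped by gene) on the 4 arrays, with wild-type in blue and Cnot3+/- in red, circles for animal 1 and squares for animal 2, and a line joining the animals of a genotype. Most blue and red pairs cover each other, the brighter Cnot3 probe set has its wild-type animals 0.66 apart, and 3 probe sets lie under the dotted filter line.

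Cnot3 encodes the subunit that pairs with Cnot2 through a shared C-terminal domain, the NOT box, and docks on the scaffold. Its brighter probe set, 1435965_at, read 7.48 in wild-type 1 and 8.14 in wild-type 2, against 7.70 in Cnot3+/- 1 and 7.86 in Cnot3+/- 2 on the log2 scale. Both Cnot3+/- animals thus lay between the wild-type animals. The gap of 0.66 between the wild-type animals, a 1.58-fold step, was larger than that of 96.1% of all tested probe sets, while the gap of 0.16 between the Cnot3+/- animals was ordinary (larger than 45.5%). Cnot3+/- minus wild-type came to -0.03 (SE 0.25, limma adjusted p = 1, n = 2 per group).

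Expressed as a share of the wild-type level, the 95% interval for 1435965_at ran from 63.9% to 150%. That interval leans on the variance prior of limma: without moderation it ran from -1.49 to 1.43 on the log2 scale, which includes a 2-fold step in either direction. The direction also turned on single animals: leaving out wild-type 1 gave -0.36, leaving out wild-type 2 gave 0.30, and leaving out Cnot3+/- 1 or Cnot3+/- 2 gave 0.05 or -0.11. The second probe set, 1441465_at, was dimmer, at 5.33 in wild-type 1, 5.52 in wild-type 2 and 5.54 on both Cnot3+/- arrays. Here the groups did not overlap and Cnot3+/- was higher by 0.11 (SE 0.15, adjusted p = 1), less than the wild-type gap of 0.19. Its lower 95% bound was 83.9% of wild-type. Neither probe set was lower in Cnot3+/- beyond its error, so these values do not show the labelled genotype, and the directions in this text depend on the labels being right. The place of the probes on the transcript is unknown here, and a probe outside an altered part checks nothing.

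The 3 genes whose 4 centred values lay nearest to those of the brighter Cnot3 probe set were Zc3h12a, Rbsn and Cep164, at root mean square distances of 0.015, 0.022 and 0.027 on the log2 scale over 4 arrays. By the way they were chosen, all 3 have the same low wild-type 1 and high wild-type 2. Of the 13386 other genes, 150 lay within a distance of 0.1.

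Cnot2 encodes the partner of Cnot3 in the NOT box pair, and deadenylation of bound mRNAs depends on the pair. It had 6 probe sets, of which 4 were tested. The brightest, 1436980_x_at, read 8.001 and 8.225 in wild-type 1 and 2, against 8.257 and 8.013 in Cnot3+/- 1 and 2. Wild-type 1 and Cnot3+/- 2 formed the low pair and wild-type 2 and Cnot3+/- 1 the high pair, so the groups overlapped fully. The difference was 0.02 (SE 0.17, adjusted p = 1) with an interval from -0.40 to 0.44. The other tested probe sets of Cnot2 differed by 0.07 (1456576_x_at), 0.06 (1454602_s_at) and -0.01 (1454603_a_at), each with overlapping groups. Probe sets of the _x_at and _s_at kinds can match more than one transcript, which bears on 3 of these 4. The remaining 2 lay below the filter: 1445017_at differed by -0.21 with separate groups (3.15 and 2.99 against 2.84 and 2.88) and 1447212_at by 0.08. Signals this dim carry little information on the transcript.

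Cnot10 and Cnot11 encode a pair of proteins that bind each other and the N-terminal part of the scaffold, away from the nucleases. The brightest Cnot10 probe set, 1433882_at, read 7.11 and 7.07 in wild-type, against 7.38 and 7.28 in Cnot3+/-. Both Cnot3+/- animals stood above both wild-type animals, and the gaps within a genotype were small, at 0.03 and 0.10. The difference was 0.24 (SE 0.14, adjusted p = 1), 1.18-fold, with a 95% interval from 93.2% to 150% of wild-type. It was between 0.19 and 0.29 with any 1 array left out. Without moderation the unadjusted p was 0.0421 and the adjusted p 0.998.

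Other Cnot10 probe sets did not all follow the brightest. 1459757_x_at, of the kind that can match more than 1 transcript, was higher by 0.16 (SE 0.14). It read 5.68 and 5.61 in wild-type against 5.87 and 5.73 in Cnot3+/-, again without overlap. 1459756_at, annotated to the same sequence record, differed by -0.08 (SE 0.15), at 5.80 and 5.86 against 5.84 and 5.65, with overlap. The dim 1453654_at, below the filter, differed by -0.08.

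Cnot11 had overlapping genotypes on each of its 3 probe sets. Its brightest probe set, 1428533_at, read 7.60 and 7.47 in wild-type 1 and 2 and 7.59 and 7.52 in Cnot3+/- 1 and 2, a difference of 0.02 (SE 0.14, adjusted p = 1). On 1439772_at the values were 6.05 and 5.52 in wild-type against 6.21 and 5.72 in Cnot3+/-, and on 1452824_at they were 4.63 and 4.44 against 4.79 and 4.56. On all 3 probe sets the animal numbered 1 stood above the animal numbered 2 in both genotypes, an order seen in 5 of the 19 tested subunit probe sets and in 28.7% of all tested probe sets. The differences of the dimmer ones were 0.18 (SE 0.26) and 0.14 (SE 0.16). Taken number by number, Cnot3+/- minus wild-type was 0.16 and 0.20 on 1439772_at and 0.15 and 0.12 on 1452824_at, but -0.01 and 0.04 on 1428533_at. The labels give no shared origin for animals of the same number.

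**Figure D2:**
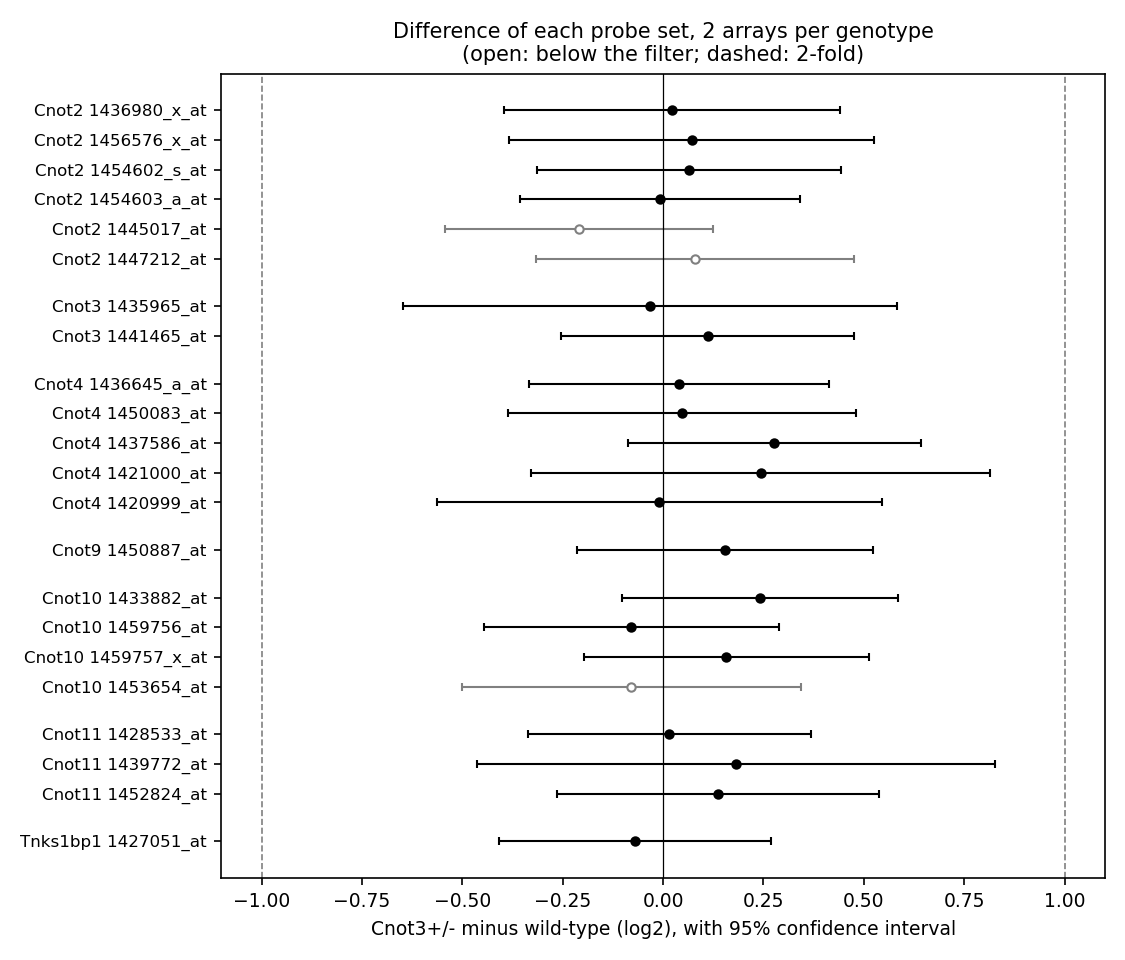
Cnot3+/- minus wild-type for each probe set on the log2 scale, with points for the difference of the 2-animal means and bars for limma's 95% confidence interval, and open grey symbols for the 3 probe sets below the filter. Every interval crosses 0, and those of the 19 tested probe sets stay between -0.65 and 0.83, inside the dashed lines that mark 2-fold.

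Cnot9 encodes an armadillo-repeat protein that binds the scaffold and offers pockets for GW182 proteins and other adaptors. Its single probe set, 1450887_at, read 6.64 and 6.71 in wild-type, against 6.73 and 6.93 in Cnot3+/-. The groups did not overlap, but Cnot3+/- 1 stood only slightly above wild-type 2. The difference was 0.15 (SE 0.15, adjusted p = 1), with an interval from -0.21 to 0.52, and it was 0.06 without Cnot3+/- 2 and 0.25 without Cnot3+/- 1. The gap of 0.19 between the Cnot3+/- animals exceeded the difference between the genotypes.

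Cnot4 encodes a RING-type ubiquitin ligase that is a stable subunit in yeast and is held more loosely in mammals. All 5 of its probe sets were tested, and they disagreed in size. The largest difference among all tested subunit probe sets was that of 1437586_at, at 0.28 (SE 0.14, unadjusted p = 0.109, adjusted p = 1). It read 6.47 and 6.64 in wild-type, against 6.87 and 6.79 in Cnot3+/-, without overlap, and differed by 0.19 to 0.36 with any 1 array left out. 1421000_at differed by 0.24 (SE 0.23), but rested on wild-type 1, which read 5.75 while the other 3 arrays read 6.16 to 6.39; without that array the difference was -0.04.

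The other 3 Cnot4 probe sets, the brightest among them, showed differences close to 0. These were 0.04 (SE 0.15) for the brightest, 1436645_a_at, 0.05 (SE 0.17) for 1450083_at and -0.01 (SE 0.22) for 1420999_at, all with overlap. On 1420999_at wild-type 2 and Cnot3+/- 1 both read about 0.41 above the other animal of their genotype. With the 5 probe sets averaged, Cnot4 differed by 0.12 (SE 0.15) with a 95% interval from -0.26 to 0.50.

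Tnks1bp1 encodes TAB182, a tankyrase-binding protein that is recovered with the complex. Its probe set 1427051_at had small gaps between animals, 0.06 in wild-type and 0.04 in Cnot3+/-. It read 6.80 and 6.86 in wild-type, against 6.78 and 6.74 in Cnot3+/-. The groups did not overlap, and Cnot3+/- was lower by a difference of -0.07 (SE 0.13, adjusted p = 1), with an interval from -0.41 to 0.27.

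Over the 19 tested probe sets, 14 were higher in Cnot3+/- and 5 lower, with a median difference of 0.06 and a range from -0.08 to 0.28. Over all tested probe sets, 48.6% were higher and the median was -0.01. The excess of higher values varied with scaling and with the array left out. After quantile normalization 11 of 19 were higher (median 0.01), beside 44.9% of all tested probe sets (median -0.02). After centring each array on its median 16 were higher, beside 51.8% of all. The number was 9 without wild-type 1 (median -0.00) and 10 without Cnot3+/- 1. It was 14 without wild-type 2 and 16 without Cnot3+/- 2. With any 1 array left out, 47.7% to 50.1% of all tested probe sets were higher. Groups did not overlap on 6 of the 19, which is 31.6% beside 31% of all tested probe sets. Of these, 5 were higher (14.6% of all tested probe sets were) and 1 was lower (16.5% of all were). The share is near the background and is not a result about these genes. In size, 18 of 19 differences were under 0.25, against 78.7% of all tested probe sets, and the median size was 0.07 against 0.12. The 19 come from 7 genes and are not independent, and their median SE was 0.15 against 0.16 over all tested. With the probe sets of a gene averaged, the median difference of the 7 genes was 0.11, against -0.01 over all genes.

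The tested intervals reached at most from 63.9% to 177% of wild-type. A 2-fold step in either direction therefore lay outside all 19 intervals, given limma's variance prior. Without that prior, 4 of the 19 intervals included it in each direction (Cnot3 1435965_at, Cnot4 1420999_at and 1421000_at, Cnot11 1439772_at). With 1 array left out, in fits that again used the prior, at most 2 intervals reached a 2-fold higher value. Smaller steps were not resolved with 2 animals per genotype.

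In 11 of the 19 probe sets wild-type 2 stood above wild-type 1 while Cnot3+/- 1 stood above Cnot3+/- 2, a combination seen in 23.7% of all tested probe sets. These were all 4 tested probe sets of Cnot2, 4 of Cnot4, the dimmer one of Cnot3, 1 of Cnot10 and that of Tnks1bp1. The median gap over the 19 probe sets was 0.09 between wild-type 1 and Cnot3+/- 2 and 0.08 between wild-type 2 and Cnot3+/- 1, but 0.17 between the wild-type animals and 0.16 between the Cnot3+/- animals. For all tested probe sets the same medians were 0.22, 0.16, 0.18 and 0.18. Probe sets of a gene share its transcripts, so these 19 are not independent.

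**Figure D3:**
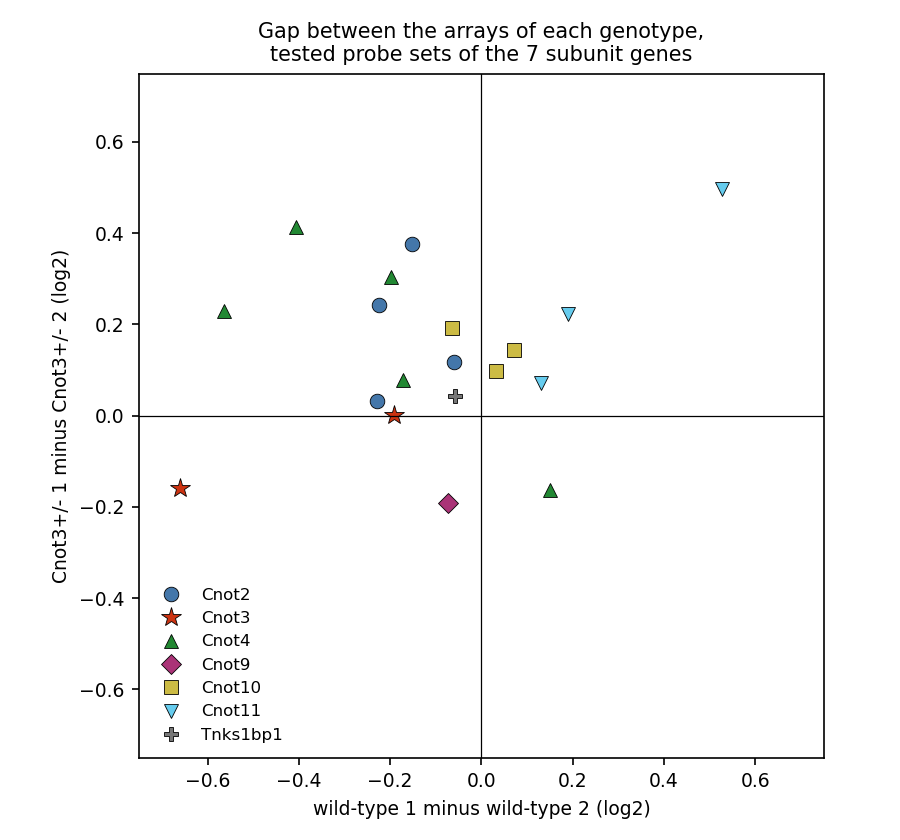
For each tested probe set, the gap between the wild-type animals (x axis, 1 minus 2, log2) against the gap between the Cnot3+/- animals (y axis, 1 minus 2, log2), with a symbol per gene. The upper left panel area holds 11 of the 19 points, the 3 Cnot11 points lie at upper right, and the brighter Cnot3 probe set stands at the far left.

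The nuclease subunits and partners of the complex gave the setting for these values, through 5 lists with 104 tested probe sets of 42 genes. None passed the limma test (0 higher and 0 lower at an adjusted p under 0.05; 6 had an unadjusted p under 0.05, beside the 3.72% of all tested probe sets). The nuclease subunits Cnot6, Cnot6l, Cnot7 and Cnot8 had 6 of 13 probe sets higher and a median difference of -0.07. On its brightest probe set Cnot8 differed by -0.25 (SE 0.22), and by -0.19 on its other one. Cnot7 differed by 0.08 (SE 0.17) on its brightest probe set and by -0.17 and -0.14 on the others. BTG and TOB proteins, which link the nucleases to other factors and restrain proliferation, had 7 of 12 higher (median 0.08). Btg2 differed by 0.95 (SE 0.23, limma unadjusted p = 0.0077, adjusted p = 1) on its brightest probe set and by 1.21 (unadjusted p = 0.0080) on the other. Both had separate groups, and without Cnot3+/- 2 the differences were 0.65 and 0.81. Tob2 differed by 0.16 (SE 0.17) on its brightest and by -0.18 to 0.52 on its other 4. Its groups were separate on the one at 0.52 (limma unadjusted p = 0.0103, adjusted p = 1) and, in the other direction, on the one at -0.18. Groups did not overlap on 31% of all tested probe sets. Deadenylases outside the complex had 9 of 16 higher (median 0.02), with the PAN2-PAN3 genes Pan3 at 0.26 (SE 0.18) and Pan2 at 0.21 (SE 0.15) on their brightest probe sets. The other tested probe sets of Pan3 differed by 0.41 and -0.29.

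Genes whose proteins recruit the complex to mRNAs had 34 of 43 probe sets higher and a median difference of 0.22, against -0.01 over all tested probe sets. The Smaug homologue Samd4 differed by 0.65 (SE 0.28) on its brightest probe set and by -0.15 to 0.04 on its other 3, and the GW182 gene Tnrc6b by 0.46 (SE 0.23) on its brightest and by 0.31 and 0.43 on the others. That median was 0.03, with 26 of 43 higher, when wild-type 1 was left out. It was 0.37 without wild-type 2, 0.18 without Cnot3+/- 1 and 0.20 without Cnot3+/- 2. Factors that act after deadenylation had 16 of 20 higher, with a median of 0.14. The median was 0.03 without wild-type 1 and 0.14 to 0.20 with any other array left out. Among these factors were the decapping activator helicase gene Ddx6 at 0.23 (SE 0.17) and the poly(A)-binding protein gene Pabpc1 at 0.21 (SE 0.19) on their brightest probe sets. Ddx6 differed by 0.51 and 0.18 on its other tested probe sets, and Pabpc1 by 0.34 on its other one. None of these list members had an adjusted p below the threshold. On their brightest probe sets Samd4, Tnrc6b and Pabpc1 read lower in wild-type 1 than in wild-type 2. Ddx6 did not, at 8.08 in wild-type 1 and 8.03 in wild-type 2. That order of the wild-type animals was common among the 27022 tested probe sets. It was found in 7529 with Cnot3+/- 1 also below Cnot3+/- 2, and in 6400 with Cnot3+/- 1 above it.

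**Figure D4:**
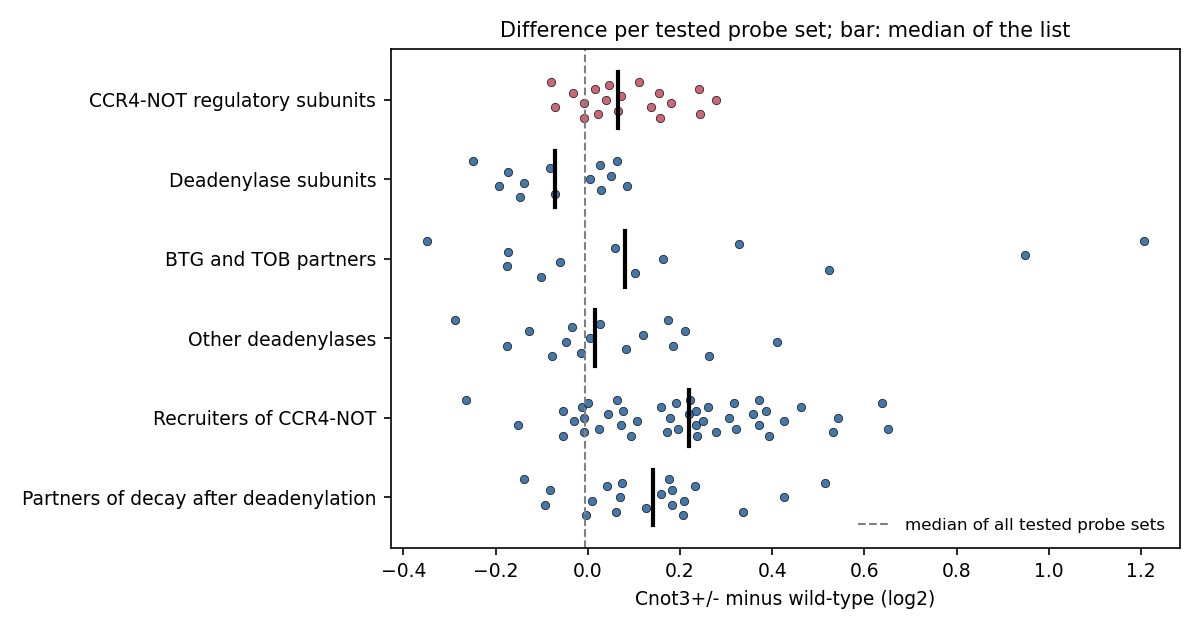
Cnot3+/- minus wild-type (x axis, log2) for every tested probe set of the regulatory subunits (red) and of the 5 partner lists (blue), with a black bar at the median of each list and a dashed line at the median of all tested probe sets, -0.01. The regulatory subunits span -0.08 to 0.28, and both Btg2 probe sets stand apart at the right, at 0.95 and 1.21.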

How the data were processed

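Total RNA (10 ug per mouse) was labelled as biotinylated cRNA for Affymetrix arrays, per the labels' protocols. The authors deposited RMA values on a log2 scale (RMA is named in the submitters' processing notes, the scale was read from the values). RMA corrects background, normalizes between arrays and summarises probes; differences of dim probe sets come out too small. The sources used here name no RMA version. All 4 columns were mapped, with 0 left over. After leaving out 64 control probe sets and the lowest 40% by mean (under 4.06), 27022 probe sets were fitted in limma 3.58.1 (R 4.3.3; lmFit, eBayes, no covariate; 2 residual and 3.43 prior degrees of freedom). Members below the filter take their error from the unfiltered fit. Symbols come from the array platform's annotation, which named 34945 non-control probe sets with a single gene. Differences are Cnot3+/- minus wild-type, and SE is the moderated standard error. The fit was tested on simulated data.

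The genes and lists were chosen with earlier results of these data known. The text names all 7 subunits, the 2 genes per list of largest difference on their probe set of highest mean, and the 3 genes nearest to Cnot3. Alternatives were other filters, scalings, variance priors, gene summaries, a replicate block, and each array left out; the fit without moderation was added after seeing the data.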

Additional observations from a re-analysis of the deposited data

How the results depend on the processing

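No subunit probe set passed the threshold under any of the 13 alternatives, and the smallest adjusted p of a subunit was 0.802, without wild-type 2. The lists of partner genes likewise had 0 calls under each alternative. The median difference of the subunits ranged from -0.0042 to 0.15 with 1 array left out. Over the whole table the 2 calls were lost with the replicate block and whenever any 1 array was left out. Groups did not overlap for 3 of 7 genes with 1 probe set a gene (31.5% of all genes) or with their average (31.3% of all). Several subunit differences near 0 turned direction, and the cause was not tested. After quantile normalization Cnot2 1436980_x_at stood at -0.023, Cnot4 1436645_a_at at -0.0092 and Cnot11 1428533_at at -0.035. After median centring Cnot2 1454603_a_at stood at 0.0054 and Cnot4 1420999_at at 0.0041. With probe sets of a gene averaged, Cnot3 stood at 0.040. With 1 array left out, 12 of the 19 tested probe sets turned direction at least once. For Cnot2 the ranges were -0.10 to 0.14 (1436980_x_at), -0.12 to 0.26 (1456576_x_at), -0.050 to 0.18 (1454602_s_at) and -0.066 to 0.051 (1454603_a_at). For Cnot3 1435965_at the range was -0.36 to 0.30. For Cnot4 the ranges were -0.042 to 0.12 (1436645_a_at), -0.11 to 0.20 (1450083_at), -0.039 to 0.52 (1421000_at) and -0.22 to 0.20 (1420999_at). For Cnot10 1459756_at the range was -0.18 to 0.017. For Cnot11 they were -0.050 to 0.081 (1428533_at) and -0.083 to 0.45 (1439772_at). The other 7 kept their direction.

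The labels give both genotypes the replicate numbers 1 and 2 without saying that a number marks a shared origin. Deviations of same-numbered arrays from their group mean correlated at 0.17 across the tested probe sets, which are not independent, and 2 pairs cannot show pairing. With the replicate number as a block, 0 subunit probe sets passed, their median difference stayed at 0.06 by construction, and the smallest adjusted p was 0.828. The number of arrays and, for the 3 probe sets below the filter, the dim signal limit these values.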
